A study of Mus musculus with 12 samples.

Results

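The AP-1 and BATF family studied here is a set of 10 genes for transcription factors of the basic leucine zipper (bZIP) class, followed through the activation of mouse B cells by lipopolysaccharide (LPS). The members are Fos, Fosb and Fosl2, Jun, Junb and Jund, Batf and Batf3, Atf3 and Maff, taken by their Entrez gene IDs from the 27179 genes of the deposited count table. All 10 were in the table and all 10 passed the filter on low counts, out of 12750 genes tested. A bZIP protein binds DNA only as a pair, joined through a coiled coil of leucines, and the pair decides which DNA sequence is read. Fos proteins have to pair with a Jun protein, whereas Jun proteins can also pair with themselves. BATF proteins lack the transactivation domain of Fos, pair with Jun proteins and bind composite elements together with IRF4 or IRF8, and BATF is required in B cells for class switching. ATF3 can act as a repressor and is known as a stress response factor, and MAFF is a small Maf protein without a transactivation domain of its own.

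The study took splenic B cells from C57BL/6 mice by the labels, with males of 6 to 12 weeks on a C57BL/6 Pep3b background in the methods, and measured polyadenylated RNA at 6 stages with 2 libraries each, 12 in all. Naive cells were untreated and were sorted directly as IgM+IgDhi B cells, with B220+ and TCRβ- among the gates. All other cells were isolated by negative selection and cultured with LPS at 25 µg/ml, with the division dye CellTrace Violet in a protocol that the labels repeat for every sample and that the methods give for the short cultures alone. Those at 3 h, 10 h and 33 h were sorted as activated (CD69+) but undivided, with the full dye label. On day 4, CD22+ cells without CD138, called expanded, and CD138+ cells without CD22, the antibody-secreting plasmablasts, came from longer cultures, which the methods give a lower cell density than those of the earlier times. A comparison of 33 h with the day 4 stages therefore holds density, sort gate and cell division as well as time, and these cannot be told apart. The naive stage differs from the others in isolation and culture as well as in LPS, and these cannot be told apart. The labels number the libraries of a stage I and II without naming an animal or culture, so p-values measure the spread between these libraries.

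Total counts per library ran from 23026619 to 60585587. The summed level of 6 B cell markers ran from 2050 to 10000 CPM (counts relative to the total of the library) over the libraries, and that of 5 plasmablast markers was 16900 and 16400 CPM in plasmablasts against at most 2680 elsewhere. The B cell markers held Cd22 and the plasmablast markers Sdc1, the gene of CD138. Expanded B cells and plasmablasts were sorted on these 2 proteins, so these sums are not independent of the sort. The naive libraries also held 282 and 126 CPM of 10 myeloid markers, 196 and 146 CPM of 5 erythroid markers and 19.1 and 16.9 CPM of 5 NK cell markers. In the later stages these sums were at most 37.5, 2.11 and 5.14 CPM. Of the myeloid markers, chosen here after their values were seen, Adgre1 and Itgam had the highest RPKM in the cultured stages up to expanded B cells, while Lyz2, S100a8 and S100a9 were at or below 0.0707 RPKM in every cultured stage. The 9 T cell markers summed to 66.6 and 73.4 CPM in plasmablasts and to at most 5.97 CPM elsewhere. In the plasmablast libraries Cd28, chosen in the same way, was at 20.3 and 23.1 RPKM. The other 8 T cell markers were at or below 1.37 RPKM in plasmablasts, and Cd3e, Cd8a and Trbc1 had 0 counts in both libraries. In bulk libraries such as these, fewer cells that express a gene and less RNA of it per cell cannot be told apart.

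Promoter sequence is shown for the members whose start regions held an exact match to TGACGTCA or TGACATCA, motifs that bZIP factors read. Beside them are Fos, whose printed stretch holds a TATA box, and Batf, which had no match in its window. The windows were those of RefSeq on GRCm38.p6, from 250 bases before to 50 after each annotated start, and gave 12 windows for the 10 members, since Maff had 3 annotated starts. The last 100 bases before the start are printed 5′ to 3′ on the gene's own strand, with capitals for matches to the motifs searched. The Fos stretch is chr12:85473790-85473889 on the plus strand, Jun is chr4:95052223-95052322 on the minus strand, and Batf is chr12:85686620-85686719 on the plus strand. The Maff stretches, both on the plus strand, are chr15:79347420-79347519 before the start called 2 here and chr15:79348302-79348401 before the start called 3.
Fos: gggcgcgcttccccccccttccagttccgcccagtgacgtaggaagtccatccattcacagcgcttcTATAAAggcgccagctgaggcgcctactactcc
Jun: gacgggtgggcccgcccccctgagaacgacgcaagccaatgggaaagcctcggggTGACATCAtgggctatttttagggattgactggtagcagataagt
Batf: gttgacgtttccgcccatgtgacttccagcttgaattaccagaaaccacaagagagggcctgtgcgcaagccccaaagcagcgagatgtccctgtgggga
Maff, start 2: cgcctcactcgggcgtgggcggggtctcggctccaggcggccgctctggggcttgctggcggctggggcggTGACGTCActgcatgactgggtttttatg
Maff, start 3: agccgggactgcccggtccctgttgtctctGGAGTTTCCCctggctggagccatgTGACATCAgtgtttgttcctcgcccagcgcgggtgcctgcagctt

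The AP-1 site TGANTCA matched none of the 12 windows of the members, and 7.81% of all 32851 windows, searched on both strands. The related 8-letter motif TGACGTCA, read by CREB and ATF factors, was found in 1 window, that of Maff start 2, and in 1.79% of all windows. The variant TGACATCA was found at Jun and at Maff start 3, and in 3.62% of all windows. At both it began 45 bases before the annotated start. An NF-kB site matched in 4 of the 12 windows, those of Fos, Fosb, Fosl2 and Maff start 3, and in 8.46% of all windows, with 2 overlapping matches at Fosl2. These shares do not allow for the base content of the windows. The match at Fos began 214 bases before the start, outside the stretch printed. The CArG box, the element of serum response factor, matched no member window and 1.63% of all windows, and TATAAA matched at Fos and Junb and in 13.6% of all windows. At Junb the TATAAA match began on the annotated start itself. A match is a description of the letters and does not show that a factor binds there. The absence of a match concerns these windows and these exact motifs alone, and other variants of the motifs were not searched.

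The members differed widely in level. Levels are given as RPKM, counts scaled by exon length and by library, so that they can be compared between genes. Jund had the highest RPKM of the 10 members in all 12 libraries, and at every stage at least 98.3% of the tested genes were below its mean level. Junb and Batf shared the next places, Junb ahead of Batf in the naive, 3 h and plasmablast libraries and Batf ahead of Junb in the 10 h, 33 h and expanded libraries. Jun followed them throughout. The other 6 members stayed below 25 RPKM in every library, with the lowest values in Batf3, which had 0 counts in all 4 libraries of 3 h and 10 h.

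**Figure D1:**
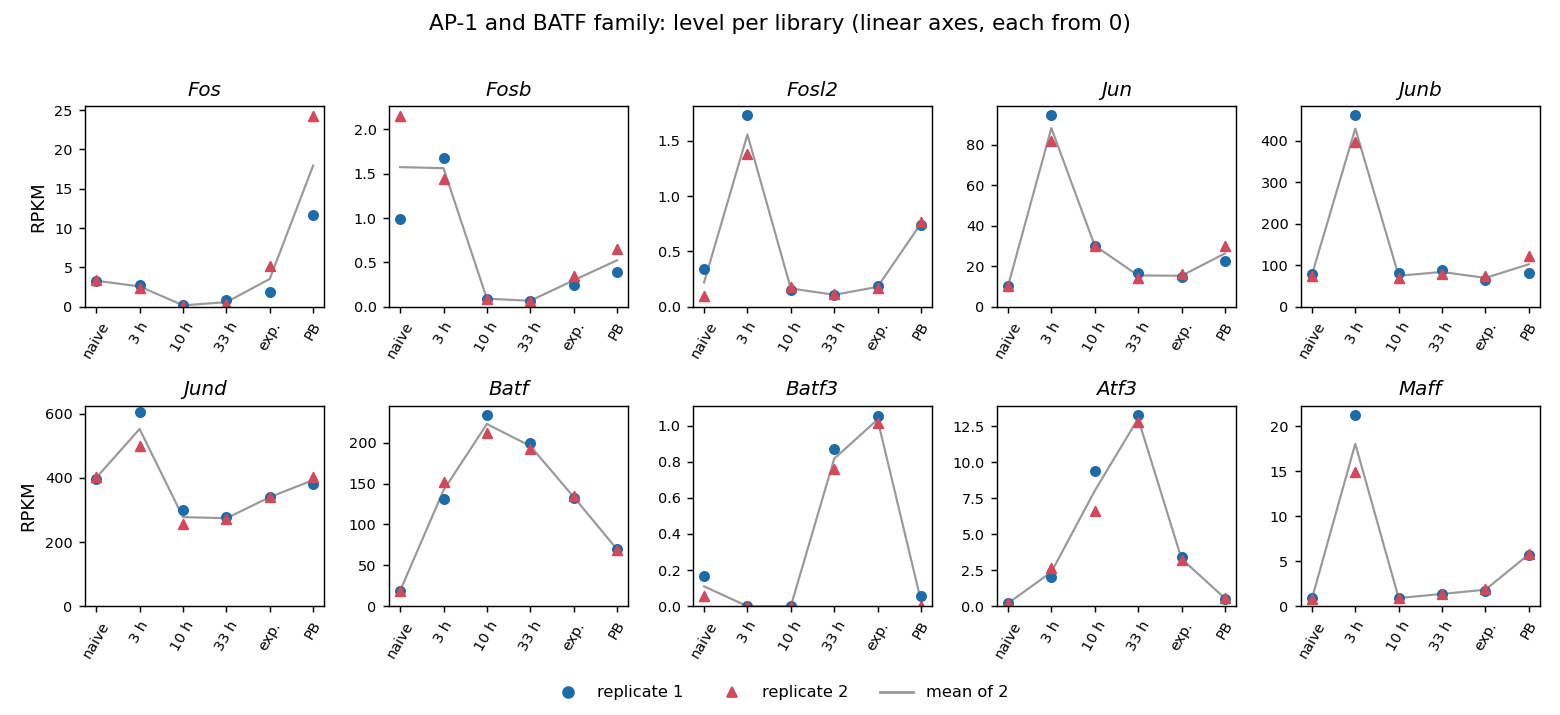
Level of each member in RPKM (vertical axes, linear and from 0) at the 6 stages, with a point for each of the 2 libraries of a stage and a line through their mean (exp., expanded B cells; PB, plasmablasts). Fosl2, Jun, Junb, Jund and Maff had their highest means at 3 h, Batf at 10 h, Atf3 at 33 h, Batf3 in expanded B cells, Fos in plasmablasts and Fosb in naive cells.

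Consecutive stages were compared with glmTreat of edgeR, which asks whether a change exceeds 1.5-fold. A gene is called where the p-value adjusted over all 12750 genes tested is below 0.05, and p-values below are of this kind unless the F-test is named. From naive to 3 h, 6 of the 10 members rose and none fell by this test, against 21.0% of all genes tested that rose and 24.3% that fell. From 3 h to 10 h, 7 members fell and 1 rose, against 13.4% and 17.4% of all genes. From 10 h to 33 h, 1 rose and 1 fell (10.1% and 4.45% of all genes). From 33 h to expanded B cells, 2 rose and 1 fell (6.94% and 3.66%), and from expanded B cells to plasmablasts 3 rose and 3 fell (13.9% and 12.2%). The median log2 fold change over the members was 2.63 from naive to 3 h and -2.04 from 3 h to 10 h, and over all genes tested it was -0.03 and 0.02. Batf3 passed the filter on low counts only through the stages where it is high, so its calls say nothing beyond that. Without it, none of the other 9 members rose and 1 fell from 10 h to 33 h, 3 rose and 2 fell from expanded B cells to plasmablasts, and the counts at the other 3 transitions were as given. The medians of these 9 were 2.77 from naive to 3 h and -2.53 from 3 h to 10 h.

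The quasi-likelihood F-test of the same fit asks for a change of any size. It called 8, 9, 4, 5 and 8 of the 10 members at the 5 transitions in turn, where it called 71.0%, 62.3%, 45.5%, 39.6% and 56.9% of all genes. Between stages that are not consecutive, glmTreat called 6 members from naive to 10 h, 5 to 33 h, 5 to expanded B cells and 7 to plasmablasts, where it called 39.4%, 43.1%, 47.2% and 50.0% of all genes in either direction. It called 9 members from 3 h to 33 h, 6 from 3 h to expanded B cells and 8 from 3 h to plasmablasts (43.0%, 49.4% and 56.8% of all genes). The last 3 pairs, from 10 h to expanded B cells, from 10 h to plasmablasts and from 33 h to plasmablasts, gave 6, 6 and 7 members called (28.8%, 46.5% and 39.4% of all genes). Without Batf3 the F-test called 7, 9, 3, 5 and 7 of the other 9 at the 5 transitions, and glmTreat called 1 fewer in the pairs from naive to 10 h, 33 h and expanded B cells, from 3 h to 33 h and expanded B cells, from 10 h to expanded B cells and from 33 h to plasmablasts. Comparisons that share a stage share its libraries.

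**Figure D2:**
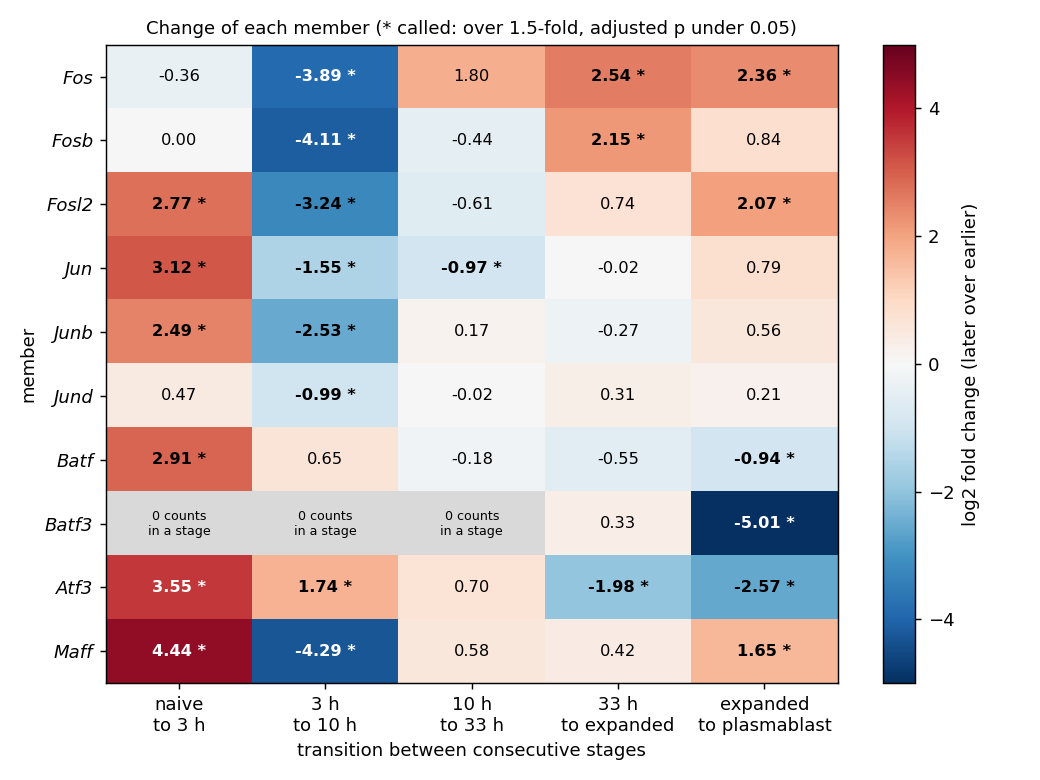
Log2 fold change of each member (rows) at the 5 transitions between consecutive stages (columns), later stage over earlier, with asterisks and bold type for calls by glmTreat. The 3 Fos genes, the 3 Jun genes and Maff were called lower from 3 h to 10 h, Fos, Fosl2 and Maff were called higher in plasmablasts where Batf, Batf3 and Atf3 were called lower, and grey cells mark Batf3 where a stage had 0 counts. Batf3 passed the filter on low counts only through the stages where it is high, so its calls say nothing beyond that.

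Fos encodes the founding partner of Jun and is a classical immediate early gene, switched on within minutes of a stimulus and off soon after. It was at 3.25 and 3.33 RPKM in naive cells, 2.72 and 2.43 at 3 h, and 0.219 and 0.114 at 10 h. The 33 h libraries held 0.816 and 0.314 RPKM, the expanded ones 1.88 and 5.16 and the plasmablast ones 11.6 and 24.3. Fos was not called at 3 h, the earliest time sampled, where its log2 fold change from naive was -0.36 ± 0.52 (SE) with adjusted p = 0.83. It then fell by 3.89 ± 0.72 on the log2 scale between 3 h and 10 h (adjusted p = 0.0024), down to 22 and 9 counts per library. Its log2 fold change from 10 h to 33 h was 1.80 ± 0.80, which was not called (adjusted p = 0.29). Without the filter on low counts it was called (log2 fold change 1.83, adjusted p = 3.7e-05), and without replicate 1 of 33 h it was 0.87 (adjusted p = 1).

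Fos was called higher at each of the 2 last transitions. The log2 fold change from 33 h to expanded B cells was 2.54 ± 0.56 (adjusted p = 0.022) and that from expanded B cells to plasmablasts was 2.36 ± 0.48 (adjusted p = 0.0067). The plasmablast level was also above the naive level, by 2.45 ± 0.49 on the log2 scale (adjusted p = 0.0027), and above that of 3 h, by 2.81 ± 0.51 (adjusted p = 0.0011). From highest to lowest the order of stages was plasmablast, expanded, naive, 3 h, 33 h and 10 h. The middle neighbours did not differ beyond their spread, expanded against naive with F-test adjusted p = 0.88 and naive against 3 h with 0.55, nor did 33 h and 10 h with 0.093. Fos had the widest spread between replicates of the 10 members, with a biological coefficient of variation of 0.361 against 0.0722 to 0.237 for the others. The call from 33 h to expanded B cells was lost without either library of 33 h (adjusted p = 0.051 without replicate 1 and 0.13 without replicate 2) and without replicate 2 of expanded B cells (0.17). With a library left out its log2 fold change ran from 1.65 (without replicate 2 of expanded B cells) to 3.47 (without replicate 1 of 33 h). That from expanded B cells to plasmablasts was lost without replicate 2 of plasmablasts (Fos log2 fold change 1.76, adjusted p = 0.053) and when only the 4 libraries compared were fitted (adjusted p = 0.25), and was 3.25 on the log2 scale without replicate 2 of expanded B cells (adjusted p = 0.0014).

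The replicate difference of Fos was shared with other early response genes, chosen after their values were seen. In expanded B cells Egr1, a zinc finger factor, was at 16.9 RPKM in replicate 1 and 49.6 in replicate 2, whereas the plasmablast libraries held 39.7 and 137. Ier2 was at 17.8 and 32.0 RPKM before, and at 52.9 and 118 after, the step to plasmablasts. Egr2, a relative of Egr1, was at 2.21 and 3.79, then at 8.14 and 21.0 RPKM, and Dusp1, a phosphatase that turns off MAP kinases, was at 2.09 and 3.66, then at 11.1 and 20.8. All 5 genes were thus higher in replicate 2 of both day 4 stages. Among the other family members, Fosb, Jun, Junb, Jund and Maff were also higher in replicate 2 at both of these stages. For Jund in expanded B cells the values were only 339 and 340 RPKM. Fosl2, Batf, Batf3 and Atf3 were not higher in replicate 2 at both. Of the 4 genes besides Fos, Egr2, Dusp1 and Ier2 were called higher in plasmablasts than in expanded B cells, with log2 fold changes of 2.29 ± 0.39, 2.49 ± 0.38 and 1.78 ± 0.37, and Egr1 was not (1.41 ± 0.70, adjusted p = 0.30). What part handling of the cells had in these values was not tested. Cd69, an activation marker in the same list, was at 18.1 and 21.9 RPKM before that step and at 28.4 and 46.8 after it, without a call.

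**Figure D3:**
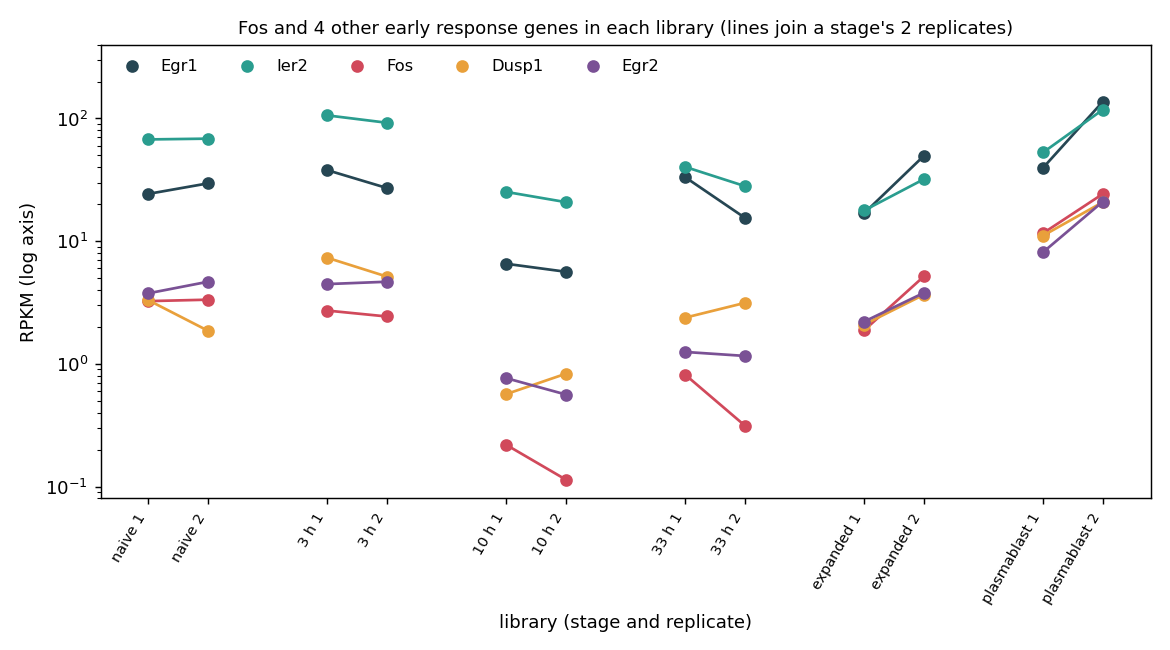
RPKM (log axis) of Fos and of Egr1, Ier2, Dusp1 and Egr2 in each of the 12 libraries, with lines joining the 2 replicates of a stage. Fos was lowest at 10 h, at 0.219 and 0.114 RPKM, and all 5 genes were higher in replicate 2 than in replicate 1 at both day 4 stages.

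Fosb, a close paralogue of Fos with the same partners, was a low-level gene whose highest values were in the earliest stages. It was at 0.994 and 2.16 RPKM in naive cells, 1.68 and 1.44 at 3 h, and 0.0881 and 0.0910 at 10 h. Values of 0.0639 and 0.0680 RPKM followed at 33 h, of 0.245 and 0.350 among expanded B cells and of 0.393 and 0.654 among plasmablasts. The naive and 3 h libraries overlapped (adjusted p = 1 by both tests), and all 4 were above every later library. Between 3 h and 10 h Fosb fell by 4.11 ± 0.42 on the log2 scale (adjusted p = 8.7e-06), which is the largest fall among the Fos and Jun members at this step. It rose by 2.15 ± 0.50 from 33 h to expanded B cells (adjusted p = 0.021), a call that rests on 14 and 9 counts at 33 h and was lost without any of 3 of the 4 libraries (adjusted p = 0.075 to 0.18). It was also lost with all libraries under the newer quasi-likelihood mode of edgeR (adjusted p = 0.068). Its plasmablast level stayed below the naive level, with a log2 fold change of -1.56 ± 0.35 (adjusted p = 0.006), where Fos was above it. Neighbours in the order that did not differ beyond their spread were naive and 3 h, plasmablast and expanded (F-test adjusted p = 0.083), and 10 h and 33 h (0.56).

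Fosl2 encodes Fra-2, a Fos protein that in other cells is made later and lasts longer than c-Fos. It was at 0.338 and 0.0992 RPKM in naive cells, 1.73 and 1.38 at 3 h, and 0.152 and 0.176 at 10 h. Later levels were 0.103 and 0.112 RPKM (33 h), 0.188 and 0.169 (expanded B cells) and 0.737 and 0.770 (plasmablasts). It was called higher at 3 h than in naive cells, with a log2 fold change of 2.77 ± 0.35 (adjusted p = 3.6e-05). Without replicate 1 of naive cells, the library with more Fosl2 counts, it was 3.95 (adjusted p = 3e-06). It then fell by 3.24 ± 0.35 by 10 h (adjusted p = 1.6e-05) and rose by 2.07 ± 0.36 from expanded B cells to plasmablasts (adjusted p = 0.0016). The order was 3 h, plasmablast and then the 4 other stages, of which naive, expanded, 10 h and 33 h did not differ beyond their spread as neighbours (F-test adjusted p = 0.45, 0.80 and 0.25). The ends of this run did differ by the F-test, with a log2 fold change of -1.08 ± 0.41 from naive to 33 h (adjusted p = 0.031). By glmTreat that change was not called (0.11). The naive libraries held 67 and 15 counts of Fosl2, and the same libraries held 282 and 126 CPM of myeloid markers. The part of those cells in the naive value was not tested.

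Jun encodes c-Jun, the partner through which most AP-1 pairs form and a target of the JNK kinases. It was at 10.1 and 10.2 RPKM in naive cells, 94.8 and 81.8 at 3 h, and 30.1 and 30.2 at 10 h. The 33 h libraries held 16.8 and 14.0 RPKM, the expanded ones 14.5 and 16.0 and the plasmablast ones 22.5 and 30.1. The rise at 3 h was 3.12 ± 0.14 on the log2 scale, or 8.72-fold (adjusted p = 2.8e-09), and 3 h did not overlap with any other stage. Jun came down in steps, by 1.55 ± 0.13 from 3 h to 10 h (adjusted p = 1.1e-05) and by 0.97 ± 0.13 from 10 h to 33 h (adjusted p = 0.013). It was the only member called lower between 10 h and 33 h, a call lost in the Wald test of DESeq2 (adjusted p = 0.14) and without replicate 2 of 10 h (0.053) or of 33 h (0.12). From expanded B cells to plasmablasts the log2 fold change was 0.79 ± 0.13, short of a call (adjusted p = 0.081) but past the F-test (0.00023). It was called without replicate 1 of plasmablasts (1.01, adjusted p = 0.0067). At 10 h Jun was still above naive by 1.58 ± 0.14 (adjusted p = 6.2e-06), and plasmablasts were above naive by 1.38 ± 0.14 (adjusted p = 2.2e-05). Of the neighbours in the order, 10 h and plasmablast (F-test adjusted p = 0.20) and 33 h and expanded (0.94) did not differ beyond their spread.

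Junb, whose protein can restrain c-Jun and cell division, had a higher RPKM than Jun in every library. It was at 79.5 and 73.4 RPKM in naive cells, 462 and 395 at 3 h, and 80.6 and 68.1 at 10 h. Values of 89.0 and 77.9 RPKM followed at 33 h, of 64.4 and 73.9 among expanded B cells and of 80.8 and 123 among plasmablasts. The rise at 3 h was 2.49 ± 0.18 on the log2 scale (adjusted p = 5.8e-07) and by 10 h it fell by 2.53 ± 0.18 (adjusted p = 1.4e-06). The level at 10 h lay at that of naive cells, with a log2 fold change of -0.04 ± 0.17 (F-test adjusted p = 0.85). Junb was therefore a gene with a single high stage in these data. The other 5 stages formed an order, from plasmablast through 33 h, naive and 10 h to expanded, in which no neighbours differed beyond their spread (F-test adjusted p = 0.15 to 0.85) and all neighbours overlapped. Between its ends, expanded and plasmablast, the F-test found a log2 fold change of 0.56 ± 0.17 (adjusted p = 0.015), which glmTreat did not call (0.65).

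Jund encodes JunD, which is made in resting cells and slows growth in several cell types. It had the narrowest range of the 10 members, from 396 and 404 RPKM in naive cells to 606 and 498 at 3 h and 298 and 257 at 10 h. Later levels were 277 and 272 RPKM (33 h), 339 and 340 (expanded B cells) and 382 and 404 (plasmablasts). The only transition at which it was called was that from 3 h to 10 h, where it fell by 0.99 ± 0.10 on the log2 scale (adjusted p = 0.00078). That call was lost when libraries were scaled by their size alone (log2 fold change -0.66, adjusted p = 0.19). The F-test also found the smaller change from naive to 3 h, 0.47 ± 0.10 (adjusted p = 0.00088), and that from 33 h to expanded B cells, 0.31 ± 0.10 (adjusted p = 0.024). Naive and plasmablast cells did not differ beyond their spread (F-test adjusted p = 0.83), nor did 10 h and 33 h (0.90) or plasmablast and expanded (0.085).

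Batf encodes the factor that works with IRF4 in activated lymphocytes. Its level rose at 3 h, and it was not called lower at the 2 transitions that followed. It was at 18.9 RPKM in both naive libraries, 132 and 152 at 3 h, and 234 and 212 at 10 h. The 33 h libraries held 200 and 192 RPKM, the expanded ones 132 and 135 and the plasmablast ones 70.2 and 69.1. The naive libraries were the lowest of all 12, and the rise at 3 h was 2.91 ± 0.10 on the log2 scale, or 7.51-fold (adjusted p = 4e-10). A further log2 fold change of 0.65 ± 0.09 from 3 h to 10 h passed the F-test (adjusted p = 3.6e-05) and not glmTreat (0.22). It was called with scaling by library size alone (0.98, adjusted p = 0.00077) and without replicate 2 of 3 h (0.77, adjusted p = 0.024). At 10 h Batf was 11.8-fold above naive (log2 3.56 ± 0.10, adjusted p = 2.2e-10).

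The decline of Batf began after 33 h. From 33 h to expanded B cells its log2 fold change was -0.55 ± 0.09, which passed the F-test (adjusted p = 4e-04) and not glmTreat (1). From expanded B cells to plasmablasts it fell by 0.94 ± 0.09 (adjusted p = 0.0012), and the plasmablast level remained above naive by 1.88 ± 0.10 (adjusted p = 1.4e-08). The order was 10 h, 33 h, 3 h, expanded, plasmablast and naive, in which 10 h and 33 h (F-test adjusted p = 0.11) and 3 h and expanded (0.40) did not differ beyond their spread. The ratio of Batf to Fos in RPKM was 5.81 and 5.67 in the naive libraries and 1070 and 1860 at 10 h. In plasmablasts it was 6.04 and 2.85. The ratio at 10 h rests on the 22 and 9 counts of Fos.

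Batf3, which dendritic cells of the cross-presenting type need to develop, was detected at trace level and only as counts that could be listed in full. There were 4 and 1 counts in the naive libraries, 0 in each library of 3 h and 10 h, 36 and 19 at 33 h, 30 and 24 among expanded B cells, and 1 and 0 among plasmablasts. In the naive libraries, where the 4 and 1 counts fell, the myeloid markers were at 282 and 126 CPM, and the part of such cells was not tested. Taking 3 counts per library as what 0 allows, its level at 33 h was at least 8.21-fold higher than at 10 h and at least 4.38-fold higher than at 3 h. The ratio of expanded B cells to plasmablasts was 38.3, with a 95% interval of 6.59 to 1540 from an exact binomial test, and that of expanded B cells to naive cells was 8.79 (3.54 to 28.2). These intervals cover counting error alone. Batf3 passed the filter on low counts only through the stages where it is high. The folds, ratios and intervals therefore describe its counts and are no separate support for a change. The level at 33 h, 0.872 and 0.761 RPKM, and that of expanded B cells, 1.05 and 1.01 RPKM, did not differ beyond their spread (F-test adjusted p = 0.54).

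Atf3, which in macrophages limits the response to LPS, had its highest level at 33 h. It was at 0.194 and 0.216 RPKM in naive cells, 2.06 and 2.69 at 3 h, and 9.41 and 6.63 at 10 h. Values of 13.3 and 12.8 RPKM followed at 33 h, of 3.42 and 3.19 among expanded B cells and of 0.514 and 0.589 among plasmablasts. It was the only member called higher at both of the earliest transitions, by 3.55 ± 0.28 on the log2 scale from naive to 3 h (adjusted p = 4.2e-07) and by 1.74 ± 0.19 from 3 h to 10 h (adjusted p = 5.7e-05). The change from 10 h to 33 h was 0.70 ± 0.17 and passed only the F-test (adjusted p = 0.0042). The mean at 33 h, 13.0 ± 0.3 RPKM (SD, n = 2), was 63.5-fold above naive in the fit (log2 5.99 ± 0.26, adjusted p = 1.5e-09). Atf3 then fell by 1.98 ± 0.18 from 33 h to expanded B cells (adjusted p = 3e-05) and by 2.57 ± 0.23 from there to plasmablasts (adjusted p = 5.4e-06). All neighbours in its order, which ran 33 h, 10 h, expanded, 3 h, plasmablast and naive, differed by the F-test (adjusted p = 0.046 for expanded and 3 h, and 0.0042 or less for the others).

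Maff encodes a small Maf protein, which pairs with NRF and BACH factors as well as with itself. It had the largest rise of the 10 members at 3 h and was back near the naive level at 10 h. It was at 0.870 and 0.775 RPKM in naive cells, 21.3 and 14.9 at 3 h, and 0.935 and 0.896 at 10 h. Later levels were 1.41 and 1.33 RPKM (33 h), 1.72 and 1.97 (expanded B cells) and 5.69 and 5.86 (plasmablasts). The rise at 3 h was 4.44 ± 0.21 on the log2 scale, or 21.7-fold (adjusted p = 2.4e-09), and by 10 h Maff fell by 4.29 ± 0.20 (adjusted p = 1.2e-08). From expanded B cells to plasmablasts it rose by 1.65 ± 0.18 (adjusted p = 9.1e-05), which put plasmablasts 6.98-fold above naive cells (adjusted p = 1.7e-07). Naive and 10 h cells did not differ beyond their spread (F-test adjusted p = 0.58), nor did expanded and 33 h cells (0.10).

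Summed over the 10 members, the family's RNA stood at 510 and 513 RPKM in naive cells and at 1324 and 1150 at 3 h. In the 8 later libraries the sum was between 558 and 658 RPKM. Jund alone made up 78.2% ± 0.8 (SD, n = 2) of the sum in naive cells and 44.5% ± 1.7 at 3 h, where Junb made up 34.6% ± 0.4. At 10 h Jund was at 45.2% ± 0.6 and Batf at 36.3% ± 0.7, up from 3.69% ± 0.01 in naive cells. The share of Batf was still 33.5% ± 0.1 at 33 h and came down to 23.5% ± 0.1 among expanded B cells and 11.4% ± 1.2 among plasmablasts. The 3 Fos genes together never exceeded 3.90% in a library, with their highest shares, 2.22% and 3.90%, in plasmablasts and their lowest, 0.0702% and 0.0662%, at 10 h. Batf has a short transcript, of 904 bases of exon against 2878 for Jund, and as a share of summed CPM, which does not allow for length, it came to 16.1% at 10 h.

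**Figure D4:**
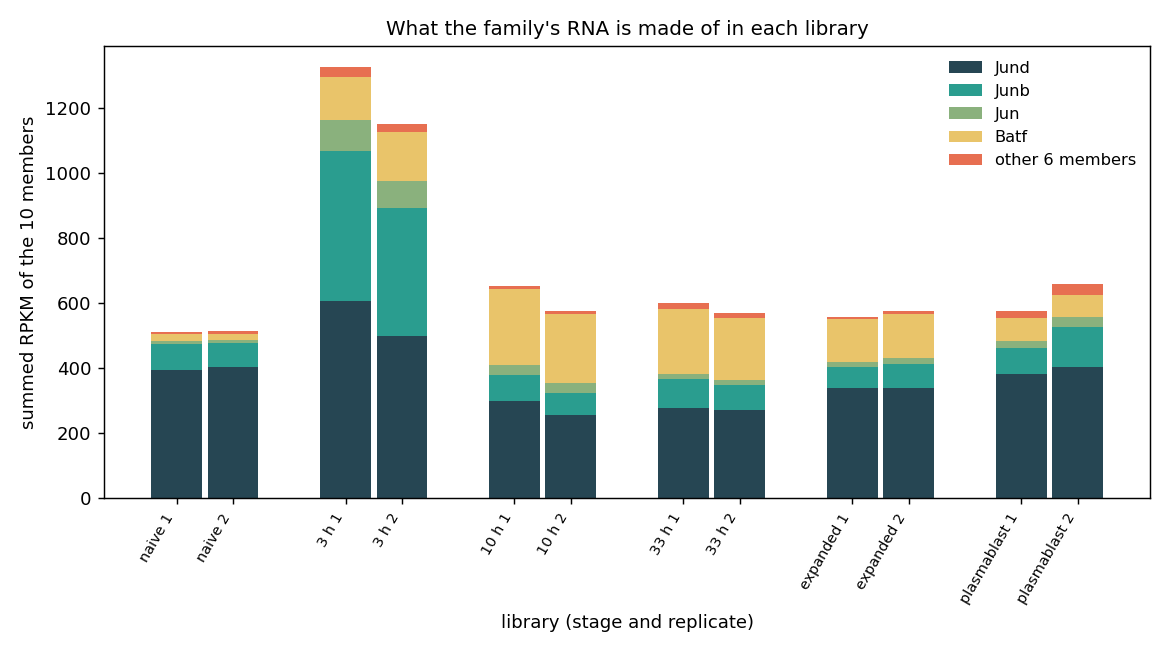
Summed RPKM of the 10 members in each library (stage and replicate on the horizontal axis), stacked by Jund, Junb, Jun, Batf and the other 6. The sum reached 1324 and 1150 RPKM at 3 h, with Junb as the second part, whereas at 10 h and 33 h the second part was Batf.

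The patterns of the members among themselves are given as Pearson correlations of log2 CPM over the 12 libraries, as a description, since the 2 libraries of a stage share it. Batf and Atf3 followed each other closely (r = 0.935), as did Fosl2 and Maff (0.916), Fosb and Jund (0.902), Junb and Maff (0.872) and Jun and Junb (0.871). Atf3 ran against Fosb (-0.79) and Fos (-0.731). For Fos and Jun, the best known pair, r was 0.00477.

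Among all genes tested, those with the pattern nearest to each member were found by the same measure. For Fos they were Egr2 (r = 0.972) and Cacna1e (0.963), for Fosb Prkd2 (0.973) and Gramd1a (0.959), and for Fosl2 Ets2 and Dusp5 (both 0.959). Jun was nearest to Ppp1r15a (0.985) and Opa3 (0.984), Junb to Tank (0.97) and Tatdn2 (0.968), and Jund to Slc15a2 (0.973) and Prkcd (0.97). For Batf they were Psmc4 (0.988) and Cct7 (0.987), for Atf3 Psmg3 (0.989) and Ncs1 (0.987), and for Maff Tcf25 (0.97) and Sfr1 (0.964). Batf3 was nearest to Slc4a8 (0.98) and Sp140 (0.964), a likeness that rests on its few counts. No member was among the nearest genes of another.

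The genes around the family were counted by list. Of 14 factors that bind DNA beside AP-1 or BATF, all tested, 8 rose and 3 fell from naive to 3 h, and 9 fell and none rose from 3 h to 10 h. In percent, 57.1% rose and 21.4% fell at the first of these transitions, against 21.0% and 24.3% of all genes tested, and 64.3% fell at the next, against 13.4%. Irf4, the partner of BATF on composite elements, rose by 3.53 ± 0.18 on the log2 scale at 3 h (adjusted p = 2.1e-08), from 54.1 and 52.3 to 709 and 519 RPKM. Nfkb1, an NF-kB subunit, rose by 2.53 ± 0.08, while Ets1 fell by 2.27 ± 0.14 and Runx1 by 1.58 ± 0.16. From 3 h to 10 h Rel, another NF-kB subunit, fell by 2.28 ± 0.20, and Smad3, a signal carrier of TGF-β, fell by 2.24 ± 0.11. Irf4 fell at that step as well, by 2.22 ± 0.17 (adjusted p = 3.7e-06), whereas Batf had its highest mean at 10 h. No factor of this list was called at the next 2 transitions, where 10.1% and 6.94% of all genes rose and 4.45% and 3.66% fell, but without the filter on low counts 1 and then 2 were called. From expanded B cells to plasmablasts 3 fell (21.4%, against 12.2% of all genes) and none rose (13.9% of all genes), among them Irf8 by 1.40 ± 0.09 and Nfkb1 by 1.39 ± 0.08. Irf4 was at 147 and 163 RPKM before that step and at 242 and 290 after it, without a call, where Batf was at its lowest since activation.

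Other bZIP genes, 30 tested of 34, were counted in the same way. From naive to 3 h 12 rose (40%, against 21.0% of all genes) and 4 fell (13.3%, against 24.3%). From 3 h to 10 h 4 rose (13.3%, against 17.4%) and 10 fell (33.3%, against 13.4%), and from 10 h to 33 h 1 rose (3.33%, against 10.1%) and 8 fell (26.7%, against 4.45%). From 33 h to expanded B cells 3 rose (10%, against 6.94%) and 1 fell (3.33%, against 3.66%), and from there to plasmablasts 9 rose (30%, against 13.9%) and 5 fell (16.7%, against 12.2%). Fosl1, the remaining Fos gene, had 0 counts in both naive libraries and 48 and 76 at 3 h, at least 25.2-fold higher with 3 counts per library as the limit of 0. Nfil3, a repressor, rose by 3.10 ± 0.16 on the log2 scale at the same step. Jdp2, which pairs with Jun proteins, rose by 2.32 ± 0.44 from 3 h to 10 h, and Crem, a CREB relative, fell by 2.34 ± 0.16. Bach2, a repressor that competes with AP-1 for DNA and holds back plasma cell formation, fell by 1.54 ± 0.19 from 33 h to expanded B cells (adjusted p = 0.00098). Xbp1, the driver of the secretory program, rose by 1.33 ± 0.28, 1.72 ± 0.28 and 2.36 ± 0.29 at the last 3 transitions.

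Of 17 other immediate early genes, all tested, 8 rose and 2 fell from naive to 3 h and 14 fell with none rising from 3 h to 10 h. These are 47.1% and 11.8% of the list at the first transition, against 21.0% and 24.3% of all genes, and 82.4% that fell at the next, against 13.4%. Cd69 was among the genes that rose at 3 h. Cells of 3 h, 10 h and 33 h were sorted as CD69+, so that rise is not independent of the sort. The orphan receptor Nr4a3 rose by 6.39 ± 0.29 at 3 h and fell by 5.37 ± 0.26 by 10 h, while Klf2, a quiescence factor, fell by 2.62 ± 0.23 at 3 h (adjusted p = 5e-06). Nr4a2 had 0 counts in both naive libraries and 109 and 120 at 3 h, at least 48.9-fold higher. From 10 h to 33 h none rose and 4 fell (23.5%, against 4.45% of all genes), a count of 1 with the Wald test of DESeq2. From 33 h to expanded B cells 2 rose and 2 fell (11.8% each, against 6.94% and 3.66%), and from there to plasmablasts 4 rose (23.5%, against 13.9%) and 1 fell (5.88%, against 12.2%). The gene that fell in plasmablasts was Klf2, which decreased by 5.70 ± 0.31 (adjusted p = 1.5e-07), and the largest rises there were Nr4a2 (2.38 ± 0.54) and Egr2. The list's median log2 fold change was 0.55 at 3 h, -2.41 by 10 h and 0.71 in plasmablasts, against 2.63, -2.04 and 0.67 for the 10 members. For the 9 members without Batf3, which had 0 counts at 3 h and 10 h, the medians were 2.77, -2.53 and 0.79.

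Kinases and regulators upstream of AP-1, 39 tested of 42, were counted next. From naive to 3 h 8 rose and 8 fell, 20.5% each, where 21.0% of all genes rose and 24.3% fell. From 3 h to 10 h 3 rose (7.69%, against 17.4%) and 8 fell (20.5%, against 13.4%). At the later transitions 2 rose and 2 fell (5.13% each, against 10.1% and 4.45%), 1 rose and 1 fell (2.56% each, against 6.94% and 3.66%), and 3 rose and 3 fell (7.69% each, against 13.9% and 12.2%). Map3k8, the kinase TPL2 that carries the LPS signal to ERK, rose by 3.08 ± 0.19 at 3 h (adjusted p = 3.4e-08). Map2k6, an activator of p38, and Mapk14, a p38 kinase, had log2 fold changes of -5.33 ± 0.26 and -2.6 ± 0.10 and then rose by 2.42 ± 0.32 and 1.70 ± 0.10 by 10 h.

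A further list of 25 tested genes, of 26, held 17 phosphatases, mRNA decay factors and parts of ubiquitin ligases, and 8 genes of other kinds, namely Ier2, Ier3, Spry1, Spry2, Spred1, Spred2, Gadd45a and Gadd45b, among them inhibitors of ERK signalling and stress response genes. Ier2 was counted among the immediate early genes as well. At 3 h 11 rose (44%, against 21.0% of all genes) and 4 fell (16%, against 24.3%), and from 3 h to 10 h 15 fell (60%, against 13.4%) and none rose (17.4% of all genes). Of the 17, 7 rose and 3 fell at 3 h and 8 fell by 10 h, and of the 8, 4 rose and 1 fell and then 7 fell. At the later transitions 4 of the 25 rose and 3 fell (16% and 12%, against 10.1% and 4.45%), 4 rose and 2 fell (16% and 8%, against 6.94% and 3.66%), and 8 rose and 2 fell (32% and 8%, against 13.9% and 12.2%). Gadd45b, a stress sensor, rose by 4.79 ± 0.18 at 3 h (adjusted p = 6.5e-10), Dusp6, the phosphatase of ERK, fell by 4.18 ± 0.25, and Dusp5, another ERK phosphatase, fell by 4.41 ± 0.26 by 10 h and rose by 2.29 ± 0.25 in plasmablasts.

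A list of 14 heat shock and dissociation genes, all tested, was kept beside the family, since AP-1 genes are known to respond to cell handling. From naive to 3 h 10 rose (71.4%, against 21.0% of all genes) and none fell (24.3% of all genes), with Hspa1a up by 3.25 ± 0.29 and Hspb1 by 4.80 ± 0.71, in the same libraries in which 6 family members rose. From 3 h to 10 h 1 rose (7.14%, against 17.4%) and 3 fell (21.4%, against 13.4%), Hspa1a by 3.73 ± 0.29, and with scaling by library size alone 8 were called in place of 4. The next 2 transitions had 1 rise and 1 fall (7.14% each, against 10.1% and 4.45%), then 2 rises and no fall (14.3%, against 6.94%). From expanded B cells to plasmablasts 1 rose (7.14%, against 13.9%) and 7 fell (50%, against 12.2%). These 7 were Hspa8, Hsph1, Dnaja1, Hsp90aa1, Hsp90ab1, Hspe1 and Hspd1. The gene that rose there was Hspb1 (3.91 ± 0.23), and Hspd1, a mitochondrial chaperone, fell by 1.74 ± 0.11. Hspa1a and Hspa1b, both called higher at 3 h and lower by 10 h, were not called there (0.02 ± 0.32 and -0.21 ± 0.18). The part of cell handling in the family's values was not tested, and counts of this list cannot show it.

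**Figure D5:**
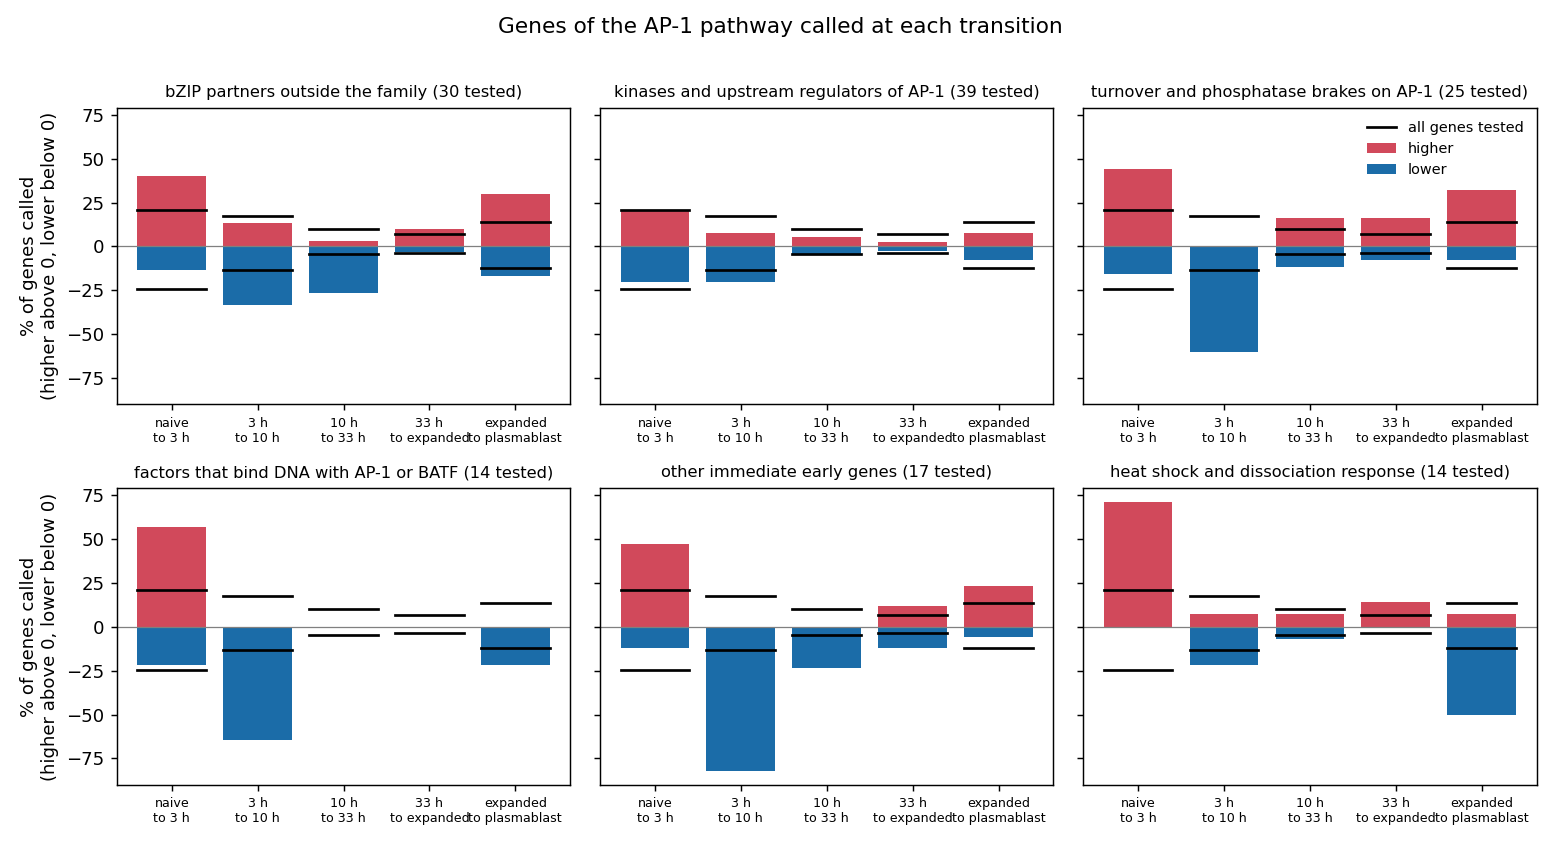
Percent of the tested genes of each list called higher (above 0) or lower (below 0) at the 5 transitions, with black lines for all 12750 genes tested. From 3 h to 10 h, 14 of 17 other immediate early genes, 15 of 25 genes of the turnover and phosphatase list and 9 of 14 DNA-binding partners were lower, against 13.4% of all genes.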

How the data were processed

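Polyadenylated RNA of 12 libraries was analysed from the counts the authors deposited, which are raw read counts per Entrez gene with the exon length of each gene. Per the labels and methods, the authors sequenced TruSeq libraries as paired ends and counted them on mm10 with featureCounts, after CASAVA 1.8.2. Of the 27179 genes, 1904 without a match in the RefSeq gene table (GRCm38.p6), 15 mitochondrial, 33 ribosomal RNA, 1279 X and Y genes and 248 variable immunoglobulin segments were removed, which kept 84.0% to 90.6% of the counts of a library. filterByExpr then left 12750 genes. No member overlaps another annotated gene.

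The tools were edgeR 4.0.16 and, for an alternative, DESeq2 1.42.0, run in R 4.3.3. TMM scaled the libraries, and all 12 entered a one-way layout of 6 stages with robust quasi-likelihood dispersions. glmTreat (1.5-fold) and the F-test were adjusted by the Benjamini-Hochberg method over all genes tested at 0.05. An SE is the log2 fold change divided by the root of its F statistic. RPKM used TMM-scaled totals of the genes tested and the deposited exon lengths, CPM of marker lists the total counts, and log2 CPM a prior count of 2. With 2 libraries against 2, an exact permutation test cannot go below p = 0.333. The fit was tested on simulated data.

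Named genes are all members, at most 2 called genes with the largest rise and 2 with the largest fall per list and transition, and the 2 genes most correlated with each member. Others, marker genes included, were chosen after their values were seen. The members and lists were chosen with earlier results of these data known. Alternatives covered scaling, filters, dispersion, DESeq2, the samples fitted, the genes removed, a replicate block and each library left out. The newer dispersion mode of edgeR was added after seeing the data. Neither protein sequences nor Hi-C were used here.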

Additional observations from a re-analysis of the deposited data

How the results depend on the processing

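Over all alternatives except the leaving out of libraries, 47 of 50 counts of members called stayed within 1.5 times the reported count. The exceptions were 1 member called instead of 2 from 10 h to 33 h, with the Wald test of DESeq2 and with a filter of at least 10 counts in every library, and 1 instead of 3 from 33 h to expanded B cells with the same filter, which leaves 7 members in the test, without Fos, Fosb and Batf3. Leaving out each library in turn gave 6, 8 to 9, 1 to 2, 1 to 3 and 5 to 7 members called at the 5 transitions. Of 120 counts of list genes called, 12 moved by over 1.5 times, 7 with the Wald test of DESeq2, 3 without a filter on low counts and 2 with library size alone. Of 60 shares of the family's sum, 50 moved by more than the spread between replicates when summed CPM, which does not allow for length, replaced RPKM, with Jund at 84.8% in naive cells and 63.8% at 10 h, and Batf at 1.26% and 16.1%.

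Directions turned only where the change was near 0 and not called. For Fosb from naive to 3 h the log2 fold change was 0.0553 with the replicate block, 0.0115 with the newer dispersion mode and -0.472 to 0.648 with a library left out. For Jund from 10 h to 33 h it was 0.0149 with the size factors of DESeq2 and with its Wald test, 0.0153 without a filter, 0.0133 with only the 4 libraries and -0.119 to 0.0989 with a library left out. For Jun from 33 h to expanded B cells it was 0.0083 and 0.00872 with the size factors and Wald test of DESeq2, 0.0148 with the stricter filter, 0.0184 with only the 4 libraries and -0.145 to 0.118 with a library left out. For Jund from expanded B cells to plasmablasts it was -0.129 with library size alone. That scaling moved the median of all genes to -0.24, 0.348 and -0.384 at the transitions from naive to 3 h, 3 h to 10 h and expanded B cells to plasmablasts. The causes were not tested.

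The replicate numbers were not taken as pairs, since none of the 15 correlations between deviations of same-numbered libraries exceeded 0.1 (-0.14 to 0.084). The highest was that of expanded B cells and plasmablasts. As they run over all genes tested, these correlations cannot show whether same-numbered day 4 libraries came from the same culture. Fos, Egr1, Ier2, Egr2 and Dusp1 were higher in replicate 2 of both day 4 stages. So were Fosb, Jun, Junb, Jund and Maff, and the source of these differences was not tested. A replicate block gave 6, 8, 2, 3 and 6 members called, as without it.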
